A study of Mus musculus with 35 samples.

Results

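In mouse neural progenitor cultures, 11190 distal regions carried acetylation of histone H3 at lysine 27 (H3K27ac) in each of 4 lines, with or without the RNA methyltransferase subunit Mettl14. They were found by intersecting, base by base, the H3K27ac peak lists of wild-type (WT) lines 532 and 541 and knockout (KO) lines 530 and 534. Stretches of at least 200 bp were kept if they lay more than 5 kb from every transcript start of a known gene in the authors' assembly. Of 26945 stretches common to the 4 lists, 23953 reached that width, 12763 of them lay within 5 kb of a start, and the other 11190 are the shared distal regions. H3K27ac peaks chose these regions, so the acetylation values below are a description and carry no test. Each region was assigned to the gene with the nearest start, 5319 genes in all, which is a label by position and not a measured contact.

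H3K27ac is placed by the acetyltransferases CBP and p300 and marks active promoters and active enhancers, the distal elements that bind transcription factors and raise transcription of a gene that can lie far away. The same lysine can instead be trimethylated (H3K27me3) by Polycomb repressive complex PRC2, a mark of silenced genes. In neural progenitors, distal acetylated elements are known around genes for stem cell identity, regional patterning and growth factor signalling. Mettl14 is the partner of Mettl3 in the enzyme that writes N6-methyladenosine (m6A) on messenger RNA.

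All samples were neural progenitor cells grown from mouse embryos. KO cultures are labelled homozygous for the Mettl14 knockout. The protocols describe a floxed Mettl14 allele deleted through the germ line with EIIa-Cre, or in the brain with nestin-Cre (f/f;nes-cre), and the sources used here do not say which gave these lines. H3K27ac and H3K27me3 chromatin immunoprecipitation was done in the 4 lines named above, each against its own input. RNA batch 3 held 2 WT and 2 KO libraries of the same 4 lines. RNA batch 1 held 3 WT and 3 KO libraries of other lines, and 3 heterozygous (Het) libraries that entered only the estimate of spread. m6A was mapped in WT cultures alone. The design text calls the lines biological replicates without naming their embryos, so p-values measure the spread between these cultures. The RNA tables number the libraries without tying a number to a line.

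RNA libraries held 13784800 to 19482407 fragments. All 12 neural progenitor markers (among them Nes, Sox2 and Fabp7) reached 1 FPKM in WT and in KO libraries of both batches, while microglial, endothelial and fibroblast markers each summed to at most 1.38 FPKM in any library. Summed progenitor markers were lower in KO, at 3610 to 4769 FPKM against 6096 to 6160 in WT in batch 3, and their part in the results below was not tested. Mettl14 RNA was 37.8 and 35.4 CPM in the WT libraries of batch 3 and 30.3 and 22.7 CPM in the KO libraries. In batch 1 it was 23.6 ± 1.17 CPM in WT and 21.6 ± 1.38 CPM in KO (mean ± SD, n = 3 each). Neither difference passed the test (adjusted p = 0.084 and 0.22), and since the described deletion removes only part of the gene, the gene total does not check the genotype. In bulk cultures, fewer cells with a transcript and less transcript per cell cannot be told apart.

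Sequence was read where a RefSeq promoter window lay whole inside a shared distal region. These windows run from 250 bases before to 50 after a RefSeq start (GRCm38.p6, the assembly that mm10 names), and 420 of the table's 32851 windows qualified, in 338 regions. Of these, 268 belonged to long noncoding RNA (lncRNA) genes and 152 to protein-coding genes. Shown are 2 windows from the most strongly acetylated regions, of Celf2, an RNA-binding protein, and of Gm41209 near Med4, a Mediator subunit. The other 4 lie in the strongest regions of progenitor genes Ednrb, Hopx, Notch2 and Btg2. Capitals mark searched motifs on either strand, and each window is written 5′ to 3′ along its gene.
Celf2: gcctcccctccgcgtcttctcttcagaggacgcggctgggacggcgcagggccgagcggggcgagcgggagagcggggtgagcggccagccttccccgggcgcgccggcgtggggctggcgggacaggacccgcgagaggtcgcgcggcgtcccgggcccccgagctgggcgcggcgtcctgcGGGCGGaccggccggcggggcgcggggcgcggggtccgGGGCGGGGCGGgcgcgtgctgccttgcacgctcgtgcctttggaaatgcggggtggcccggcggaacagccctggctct
Gm41209: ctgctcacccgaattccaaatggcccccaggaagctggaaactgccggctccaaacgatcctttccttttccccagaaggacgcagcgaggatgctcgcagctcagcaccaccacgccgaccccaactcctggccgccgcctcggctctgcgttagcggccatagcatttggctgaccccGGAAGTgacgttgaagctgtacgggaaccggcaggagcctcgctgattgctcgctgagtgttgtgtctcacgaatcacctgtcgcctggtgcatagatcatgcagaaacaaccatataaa
Gm35116: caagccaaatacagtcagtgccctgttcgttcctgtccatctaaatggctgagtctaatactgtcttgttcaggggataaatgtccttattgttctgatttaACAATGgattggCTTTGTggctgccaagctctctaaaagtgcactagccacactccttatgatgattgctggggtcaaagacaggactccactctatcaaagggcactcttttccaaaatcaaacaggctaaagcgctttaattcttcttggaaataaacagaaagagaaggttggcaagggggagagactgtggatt
Gm15831: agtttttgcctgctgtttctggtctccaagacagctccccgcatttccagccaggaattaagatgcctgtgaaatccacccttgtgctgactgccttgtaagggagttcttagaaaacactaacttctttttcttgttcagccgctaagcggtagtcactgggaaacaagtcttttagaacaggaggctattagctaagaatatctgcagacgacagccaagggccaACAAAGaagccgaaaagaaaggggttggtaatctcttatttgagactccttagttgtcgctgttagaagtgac
Gm40103: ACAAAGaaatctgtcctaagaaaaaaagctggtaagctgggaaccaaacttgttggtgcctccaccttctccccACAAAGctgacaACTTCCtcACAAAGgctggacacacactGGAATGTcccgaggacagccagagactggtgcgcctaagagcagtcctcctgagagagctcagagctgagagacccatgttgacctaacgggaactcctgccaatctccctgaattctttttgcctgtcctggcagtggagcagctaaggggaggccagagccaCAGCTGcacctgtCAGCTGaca
Gm19497: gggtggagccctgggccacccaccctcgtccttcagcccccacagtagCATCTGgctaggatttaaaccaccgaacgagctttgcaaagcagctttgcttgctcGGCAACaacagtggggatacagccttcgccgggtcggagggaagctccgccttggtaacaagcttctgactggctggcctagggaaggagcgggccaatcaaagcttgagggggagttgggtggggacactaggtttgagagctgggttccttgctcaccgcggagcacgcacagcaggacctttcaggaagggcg

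The 6 windows lie at chr2:6871986-6872285 (minus strand), chr14:73525052-73525351 (plus), chr14:103778669-103778968 (plus), chr5:77122403-77122702 (minus), chr3:98026059-98026358 (minus) and chr1:134060898-134061197 (minus). Celf2's window is 80.3% G and C with 48 CpG dinucleotides, and it holds GGGCGG, the letters read by SP and KLF factors. By contrast, the Gm35116 window 64.5 kb from the start of Ednrb is 43.3% G and C with 2 CpG, and it holds ACAATG and ACAAAG, letters that SOX factors bind. In the Notch2 intron, the Gm40103 window holds ACAAAG again and also CAGCTG, an E-box read by basic helix-loop-helix factors. Letters of TEAD factors (ACATTCC) and of ETS factors (GGAAGT) are there as well. Hopx's region holds the start of Gm15831, whose window contains ACAAAG. The Btg2 window has CAGATG, another E-box, and GTTGCC, read by RFX factors.

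Across all 420 windows the median CpG count was 10.0, against 7.0 for every window of the table and 25 for the 8461 windows inside shared regions near starts. CAGCTG was present in 23.6% of the 420, in 16.3% of all windows and in 14.2% of those near starts. In the lncRNA windows the share was 28.4%, and in the protein-coding windows 15.1%. ACAAAG was in 21.9% of the 420 and 18.7% of all windows, and ACAATG in 59 of the 420 and 12.6% of all windows. GGGCGG was in 43.1% of the 420, 35.7% of all windows and 72.7% of those near starts. AP-1 letters TGANTCA (7.86% against 7.81%) and homeodomain letters TAATTA (5.0% against 5.29%) stood close to the table's shares. CAGATG was in 16.7% against 17.2%, GTTGCC in 13.1% against 12.5%, GGAAGT in 20.5% against 23.8%, ACATTCC in 4.29% against 3.85% and the POU octamer ATGCAAAT in 2.38% against 1.74%. The palindromic NFI motif was in 0 of the 420 and in 12 of all windows. Base composition differs between these sets and 100 of the 420 windows overlap another of them, so the shares describe letters and were not tested.

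The shared distal regions covered 11.3 Mb, with a median width of 712 bp (quartiles 386 and 1278 bp, widest 15192 bp). Their median distance to the nearest start was 34.4 kb, and 82.9% lay within 100 kb. Of the regions, 49.6% were intergenic, 40.9% intronic and 9.52% overlapped an exon of the assembly. The RefSeq table leaves out chromosome 18, and 1409 of the 10806 regions on other chromosomes (13.0%) lay within 5 kb of one of its starts. These are distal by the authors' assembly and near a start by RefSeq. More regions lay downstream of the nearest start (58.5%) than upstream. Chromosome 11 held the most regions, 898 (8.03%), and the X chromosome held 105. Just inside the thresholds stood 200 bp stretches near Tmem200a, Kcnmb4os1 and Gm17746 and regions at 5002, 5007 and 5007 bp from Gstt4, Igfbpl1 and Setd8. Just outside stood 199 bp stretches near Zcchc14, Cspg4 and Tln2 and regions at 4995, 4995 and 4999 bp from Tmem39b, Sertad1 and Etv4. A region near Cspg4 and one near Etv4 thus missed by a few bases, although both genes keep other shared distal regions.

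**Figure D1:**
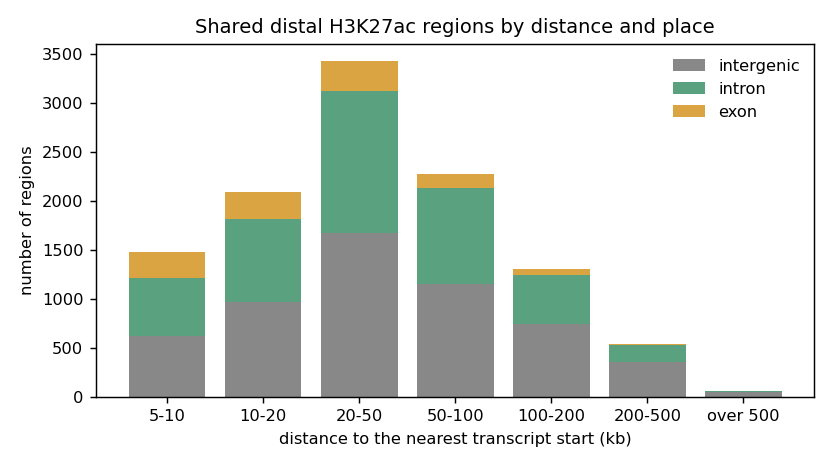
Number of shared distal H3K27ac regions (vertical axis) in classes of distance to the nearest transcript start in kb (horizontal axis), with colours for intergenic, intronic and exonic place. The class from 20 to 50 kb is the tallest, with 1669 intergenic, 1452 intronic and 308 exonic regions.

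Acetylation at these regions was weaker than near starts in each line. Fold enrichment over input of the covering peak, the authors' value, had a median of 3.83 in WT line 532, 4.04 in WT line 541, 3.63 in KO line 530 and 3.84 in KO line 534. Shared regions near starts had medians of 6.67, 6.73, 6.33 and 7.64 in the same order. Rank correlation of fold over the 11190 regions was 0.732 between the WT lines, 0.604 between the KO lines and 0.550 to 0.596 for a WT line with a KO line. These are descriptions, in which all points of a line share its library and input, and up to 1870 regions share a covering peak with another region. The regions took up 13.6% and 16.4% of the bases in the WT lists and 22.3% and 17.4% in the KO lists, which differ in total length (82.7, 68.7, 50.5 and 64.8 Mb).

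**Figure D2:**
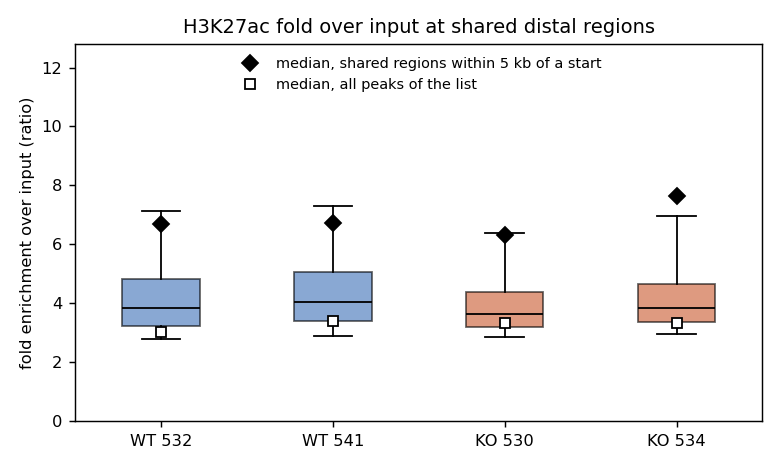
Fold enrichment over input (ratio, vertical axis) of the covering H3K27ac peak at the 11190 shared distal regions in each line. Boxes are quartiles with the median as a line, whiskers run from percentile 5 to 95, filled diamonds are medians of shared regions near starts and open squares medians of all peaks of the list, and box medians lie between 3.63 and 4.04.

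The regions were ranked by the lowest of their 4 within-list percentiles of fold enrichment. First came a 2782 bp intergenic region at chr17:46856004-46858785, 24.6 kb upstream of Gltscr1l, with folds of 19.9 and 17.9 in WT lines 532 and 541 and of 14.4 and 18.4 in KO lines 530 and 534. Second was the Celf2 intron region at chr2:6871859-6873046, with folds of 13.5 and 19.1 in WT lines 532 and 541 and of 12.5 and 15.5 in KO lines 530 and 534. It holds the RefSeq start shown above. The region chr15:85668850-85672368 came next, 31.4 kb upstream of Mirlet7bhg, the host gene of let-7 microRNAs. That gene has 9 shared distal regions within 57.2 kb. A region 9.50 kb upstream of Zfhx3, a zinc finger and homeodomain factor, followed at chr8:108703723-108705140. The rest of the first 8 lay near Gm7244, Rdm1, Arl4d and Med4, and the Gm7244 and Med4 regions also hold a RefSeq start.

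RNA was read for the genes beside these regions and had no part in their ranking. Batch 3 RNA comes from the same lines, and its assembly gave the transcript starts. Gltscr1l measured 27.1 and 28.3 CPM in the WT libraries of batch 3 and 55.8 and 44.9 CPM in the KO libraries, and it rose (log2 fold change 0.86, SE 0.17, adjusted p = 0.0066). Zfhx3 also rose, from 14.9 and 15.3 to 39.0 and 24.9 CPM (log2 fold change 1.08, SE 0.23, adjusted p = 0.0098). Celf2 fell from 412 and 411 to 260 and 248 CPM (log2 fold change -0.70, SE 0.13, adjusted p = 0.0067). For these 3 genes WT and KO libraries of batch 3 did not overlap, and each was called in the same direction in batch 1. Rdm1 and Arl4d passed in neither batch, Med4 was called only in batch 1 (log2 fold change -0.40) and Gm7244 had no counts in batch 3.

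Regions were unevenly spread over genes. Of the 5319 nearest genes, 2935 had 1 region, 484 had 5 or more and 60 had 10 or more. Zfp36l1, an RNA-binding protein that promotes decay of AU-rich mRNAs, had the most, with 28 regions between 47.9 and 397 kb from its start. Tns3 (tensin 3, a focal adhesion protein) had 24, Traf3ip2 (an adaptor of interleukin 17 signalling) 19, Xylt1 (the enzyme that starts glycosaminoglycan chains) 19 and Rgs3 (a regulator of G protein signalling) 17. Also among the first 10 were 4933433H22Rik with 24, 4930572O13Rik with 20, 6030407O03Rik with 16 and 4930452A19Rik with 15. These 4 transcripts had at most 0.436 CPM in any batch 3 library and were not tested there. In batch 1, 6030407O03Rik had 1.05 to 3.81 CPM and did not pass (log2 fold change 0.74, adjusted p = 0.15).

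In batch 3, RNA of Zfp36l1, Tns3, Traf3ip2, Xylt1 and Rgs3 did not pass the test. Where a batch 3 library is left out here and below, 1 library remains in its group. The edgeR fit then takes the spread from the other group alone and assumes that the lone library varies like it, so p-values so obtained show dependence on 1 library and make no call. Zfp36l1 was at 247 and 201 CPM in WT and 261 and 233 CPM in KO (log2 fold change 0.14, SE 0.15, adjusted p = 0.51), with overlapping groups. In batch 1 it rose from 63.5, 70.7 and 74.7 to 145, 133 and 127 CPM (log2 fold change 0.96, SE 0.084, adjusted p = 2.0e-06), with no overlap, and the effects of the batches differed (adjusted p = 0.0079 for the interaction). Tns3 had 165 and 157 CPM in WT and 221 and 182 CPM in KO (log2 fold change 0.33, SE 0.14, adjusted p = 0.12, and 0.0016 without KO library 2), and rose in batch 1 (log2 fold change 0.56). Xylt1 had 394 and 455 CPM in WT and 371 and 294 CPM in KO (adjusted p = 0.14, and 0.0026 without KO library 1), and fell in batch 1 (log2 fold change -0.91). Traf3ip2 had 19.9 and 17.6 CPM in WT and 16.9 and 6.49 CPM in KO (adjusted p = 0.20, and 2.4e-04 without KO library 1).

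H3K27me3 was rare on these regions in every line. A peak of at least 1 bp was present on 2.90% of them in WT line 532, 2.48% in WT line 541, 3.53% in KO line 530 and 4.01% in KO line 534. Both KO values lie above both WT values. The difference of 1.08 percentage points gave p = 0.333 in a two-sided exact permutation test, which is the smallest p that 2 lines against 2 allow. With H3K27me3 peaks of -log10 q at least 2 or 5 the difference was 0.345 and 0.112 points (exact permutation p = 0.333 and 1.00). The H3K27me3 lists themselves differ in size, with 58863 and 33188 peaks in WT and 43186 and 59561 in KO, and the part of list size in this difference was not tested. On shared regions near starts the shares were 7.39, 6.64, 7.94 and 10.4% in the same order. Distal regions acetylated only in both WT lines had 3.46, 2.52, 3.87 and 4.13%, and those acetylated only in both KO lines had 3.74, 3.49, 3.67 and 3.67%.

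**Figure D3:**
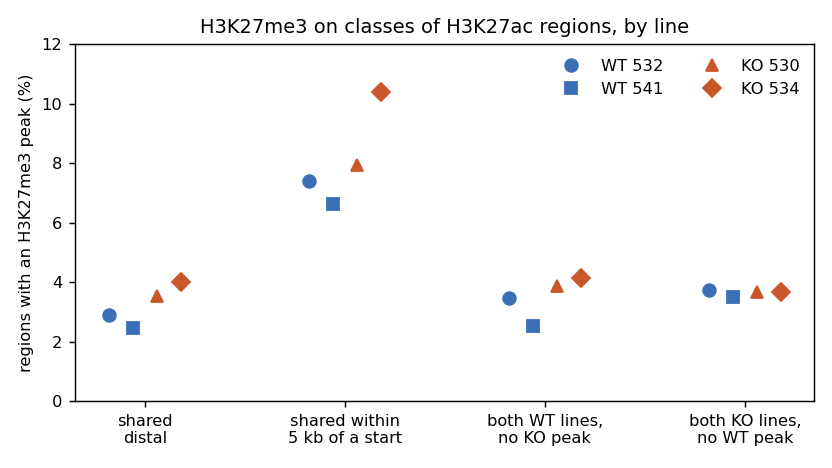
Share of regions with an H3K27me3 peak of at least 1 bp (percent, vertical axis) in each of the 4 lines, for shared distal regions, shared regions near starts and distal regions acetylated in both lines of 1 genotype only. At shared distal regions the 2 WT lines sit at 2.48 and 2.90% and the 2 KO lines at 3.53 and 4.01%.

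Of the 11190 regions, 10488 (93.7%) had no H3K27me3 peak in any line, 145 had one in every line, 44 in both KO lines only and 13 in both WT lines only. The 145 regions with both marks in every line lay beside 139 genes, at a median distance of 28.8 kb, and 93 were intergenic. They included 1 region each for Nr2f1 and Nr2f2 (orphan nuclear receptors of regional patterning), Gsx2 (a ventral forebrain homeodomain factor), Cdkn1c (a cyclin-dependent kinase inhibitor) and Fzd1 (a Wnt receptor). The Nr2f1 region at chr13:78209547-78210601 was covered by H3K27me3 over all of its 1055 bp in each line. Genes beside the 145 regions had a median WT level of 4.02 FPKM in batch 3 among the 80 tested, against 11.1 FPKM beside regions without the mark. Peaks of both marks in a culture do not show both marks in the same cell.

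RNA of genes beside shared distal regions was compared between KO and WT in each batch. In batch 3, of all 12836 genes tested 17.3% were higher and 14.4% lower in KO (edgeR, adjusted p below 0.05). Of the 5319 genes nearest to a shared distal region, 3607 passed the filter on low counts, and of these 734 (20.3%) were higher and 597 (16.6%) lower, with a median log2 fold change of 0.02 against 0.00 for all. In batch 1, 34.3% of 13677 genes were higher and 35.0% lower, and of 3823 nearest genes 1498 (39.2%) were higher and 1254 (32.8%) lower, with a median of 0.07. Calls in both batches with no overlap of WT and KO libraries made up 14.6% (higher) and 12.5% (lower) of all genes tested in both, and 615 (17.5%) and 496 (14.1%) of 3506 nearest genes. These shares lie near the background and are counts, not evidence about the regions.

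The batch 3 counts rest on few libraries. Without WT library 1 they were 462 higher and 381 lower, and without WT library 2 they were 412 and 343, when 10.1% and 7.82%, or 9.17% and 6.62%, of all genes were called. With limma on log2(FPKM + 0.1), batch 1 gave 1201 higher and 1349 lower nearest genes, while all genes split into 26.8% higher and 37.7% lower. This alternative changes unit and test together. With RLE in place of TMM factors, edgeR gave 1498 higher and 1253 lower in batch 1, beside 34.3% and 34.9% of all genes.

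Median WT RNA levels of the nearest genes in batch 3 were 9.79 FPKM with 1 region, 11.2 with 2 and with 3 or 4, 15.0 with 5 to 9 and 27.2 with 10 or more. Tested genes with no shared distal region had a median of 11.8 FPKM, above the classes with 1, 2 and 3 or 4 regions. Of all genes tested, 17.3% were higher and 14.4% lower in batch 3, and 34.3% and 35.0% in batch 1. In batch 3, 24.5% of genes with 5 to 9 regions were higher and 18.5% lower. Of the 42 tested genes with 10 or more regions, 8 were higher and 7 lower (19.0% and 16.7%). In batch 1, 22 of 45 genes with 10 or more regions were higher (48.9%) and 10 lower (22.2%). Of genes whose closest region lay at 5 to 10 kb, 21.9% were higher and 14.8% lower in batch 3. At 50 to 100 kb the shares were 19.0% higher and 21.5% lower, and beyond 100 kb 20.5% higher and 18.5% lower.

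Some of these genes also had distal regions acetylated in 1 genotype only. Their shares stand against 17.3% higher and 14.4% lower of all genes tested in batch 3, and 34.3% and 35.0% in batch 1. With regions of both WT lines and no KO peak beside the shared ones, 18.1% of 1049 genes were higher and 22.0% lower in batch 3. With regions of both KO lines and no WT peak, 27.2% of 283 genes were higher and 9.89% lower, and the median log2 fold change was 0.20. Genes with shared regions alone stood between, at 19.8% and 14.8% of 1991. The same order held in batch 1, in other lines: 35.6% higher and 37.7% lower, 48.7% and 23.2%, and 39.8% and 31.7%. Genes with shared, WT-only and KO-only regions together stood at 25.2% higher and 15.5% lower of 290 in batch 3. In batch 1 these genes stood at 38.6% and 32.0%. No test was made between these sets, and the H3K27ac regions and the batch 3 RNA come from the same 4 lines.

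**Figure D4:**
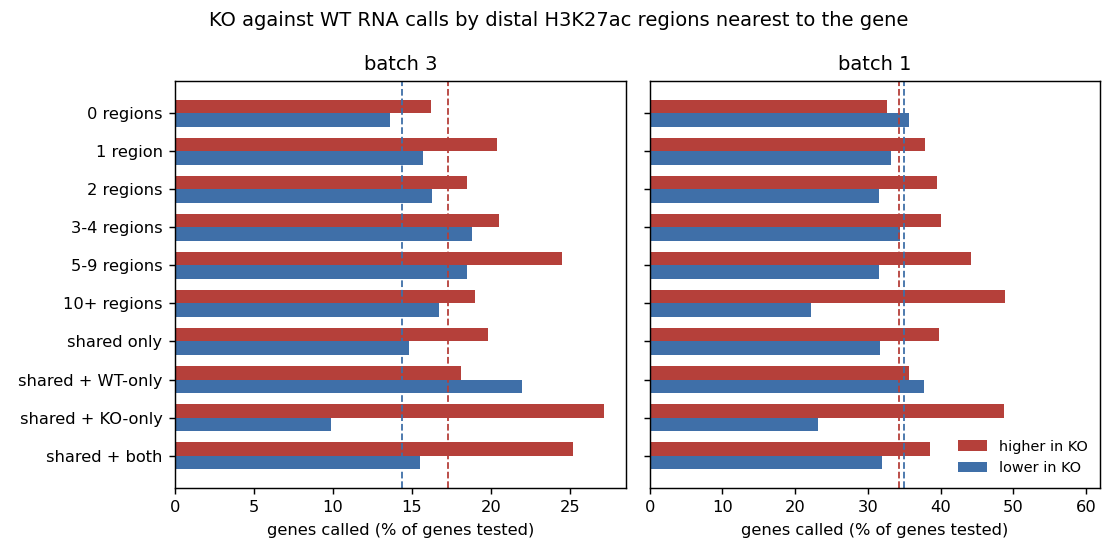
Genes called higher (red) or lower (blue) in KO as a percentage of genes tested (horizontal axis), by the number of shared distal regions nearest to the gene and by further regions found in both WT or both KO lines only, in batch 3 (left) and batch 1 (right). Dashed lines mark all genes tested, and the genes with added KO-only regions stand at 27.2% higher and 9.89% lower in batch 3.

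The largest rises among nearest genes that passed in both batches, with groups that did not overlap, were in genes with at most 2.68 CPM in any WT library of batch 3. They were picked by these values, which are therefore a description. Ip6k3, an inositol hexakisphosphate kinase with a region 5.24 kb upstream at chr17:27173003-27174427, had 0.498 and 0.135 CPM in WT and 7.50 and 4.88 CPM in KO in batch 3 (log2 fold change 4.23, SE 0.55, adjusted p = 0.0014). In batch 1 it had 0.815, 1.38 and 1.36 CPM in WT and 10.5, 6.97 and 11.2 CPM in KO. The transcript 2810049E08Rik went from 2.68 and 1.35 to 35.4 and 29.7 CPM (SE of the log2 fold change 0.30, adjusted p = 2.2e-04) in batch 3. In batch 1 it was at 2.26, 2.04 and 1.99 CPM in WT and 32.9, 39.9 and 44.4 CPM in KO. Its single region lies 106 kb away, at chr13:83997549-83998444. Kcnn2, a calcium-activated potassium channel, had 1.62 and 1.15 CPM in WT and 18.7 and 10.7 CPM in KO (log2 fold change 3.39, SE 0.37, adjusted p = 8.0e-04), and 6.27, 10.5 and 6.23 CPM against 80.3, 89.2 and 77.4 CPM in batch 1.

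Slco1c1, a thyroid hormone transporter of brain barriers, had 0.124 and 0.338 CPM in WT and 3.65 and 3.27 CPM in KO in batch 3 (log2 fold change 3.88, SE 0.53, adjusted p = 0.0017). C8b, a complement component with 3 regions, had 0.0622 and 0.203 CPM in WT and 1.66 and 2.13 CPM in KO. For Slco1c1 and C8b, every KO library lay above every WT library in both batches, which the rule that picked them required. Nrap, an actin-anchoring protein of muscle, rose by 3.12 on the log2 scale, and Ttc30a2, an intraflagellar transport protein, by 2.91. Ttc30a2 has close paralogs, between which the authors' counting could split reads, so its value is uncertain.

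Among falls, the largest fitted values came from genes near 0 in KO. F2rl1, the protease-activated receptor PAR2 with 3 regions, had 2.92 and 2.43 CPM in WT and no count in either KO library of batch 3. Against a floor of 3 counts per library this is at least 14.4-fold lower, a bound that covers counting error only. Fam135b had 31.3 and 43.0 CPM in WT and 0.332 and 0.517 CPM in KO (log2 fold change -6.41, SE 0.32, adjusted p = 1.1e-04), and 52.8, 28.1 and 32.3 CPM against 0.0527, 0.171 and 0.141 CPM in batch 1. Anxa3, an annexin with a region in its intron at chr5:96804830-96805757, fell from 63.7 and 61.3 to 1.39 and 2.70 CPM (log2 fold change -4.91, SE 0.27, adjusted p = 1.2e-04). In batch 1 Anxa3 was at 95.6, 54.5 and 45.1 CPM in WT and 0.211, 0.0571 and 0.0706 CPM in KO. The Anxa3 peaks had folds of 6.03 and 6.21 in WT lines 532 and 541. In KO lines 530 and 534 the folds were 3.65 and 4.29, both below the WT values. The rule required a peak in every line, so its presence beside a gene with less RNA in KO is a description. The relation of these folds to the RNA was not tested.

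Otx2, a homeodomain factor of forebrain and choroid plexus, had 11.3 and 7.16 CPM in WT and 0.332 and 0.115 CPM in KO (log2 fold change -5.37, SE 0.51, adjusted p = 5.5e-04). Otx2 is itself one of 4 choroid plexus markers, which summed to 4.93 to 10.0 FPKM in WT and 0.142 to 1.79 FPKM in KO, and the part of such cells in its fall was not tested. Of the others, Folr1 was at 0 in every batch 3 library and Kl was at most 0.0409 FPKM, while Ttr ranged from 0.0592 to 6.90 FPKM in WT and from 0 to 1.74 FPKM in KO. Pcp4l1, a small protein related to the calmodulin regulator Pcp4, fell from 15.5 and 12.7 to 0.598 and 0.287 CPM. Col18a1, which encodes collagen XVIII of basement membranes, fell from 28.4 and 49.3 to 1.53 and 1.32 CPM (log2 fold change -4.77, SE 0.33, adjusted p = 2.0e-04) with 4 regions. Fosb, a subunit of the AP-1 factor induced by growth signals, fell from 102 and 37.0 to 2.99 and 2.70 CPM in batch 3 and by 1.29 on the log2 scale in batch 1. Without either KO library the batch 3 call of Fosb was lost (adjusted p = 0.30 each). Ano4, a member of the anoctamin family of channels and scramblases, had 1.93 and 2.57 CPM in WT and 0.199 and 0 CPM in KO.

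**Figure D5:**
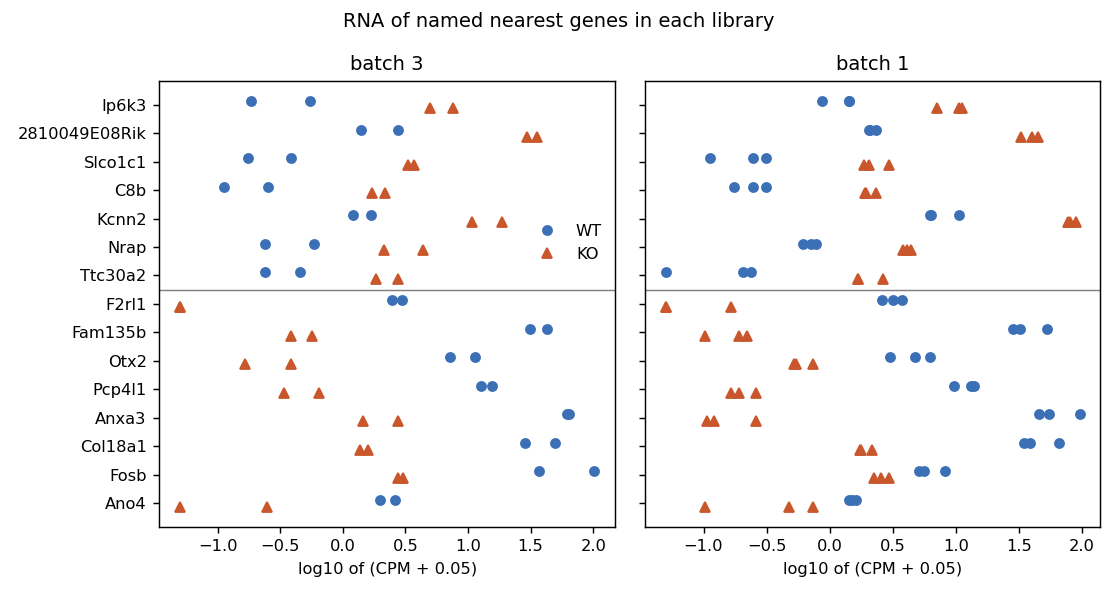
RNA of 7 of the 8 nearest genes with the largest rises (above the grey line) and of the 8 with the largest falls in each library, as log10 of CPM plus 0.05 (horizontal axis), in batch 3 (left) and batch 1 (right). Blue circles are WT and orange triangles KO libraries, and for each gene they do not overlap in either batch, which the rule that picked the genes required.

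Gene lists for progenitor biology show where these regions lie. Of 162 listed genes, 96 had at least 1 shared distal region, beside 5319 of all 23906 genes with a start in the assembly. This difference was not tested, and the lists were chosen with earlier results of these data known. In all, 301 regions were nearest to a listed gene. Counts of list genes below stand against 17.3% higher and 14.4% lower of all genes tested in batch 3, and 34.3% and 35.0% in batch 1. They cover list genes with a region, and a difference from the other genes of a list was not tested. In the neural stem cell and radial glia list, 13 of 18 genes had 51 regions. In batch 3, 3 of these 13 rose and 5 fell (17.3% and 14.4% of all genes), with a median log2 fold change of -0.19 against 0.00 for all genes. In batch 1, 6 rose and 6 fell (34.3% and 35.0% of all genes), with a median of 0.01. Tnc, the matrix protein tenascin C, had 5 regions, one of them at chr4:64000836-64004487 over an exon. It fell from 1661 and 1864 to 331 and 334 CPM (log2 fold change -2.41, SE 0.17, adjusted p = 2.0e-04). Nr2e1, the nuclear receptor Tlx that maintains neural stem cells, fell from 47.3 and 39.5 to 12.5 and 9.31 CPM (SE of the log2 fold change 0.20, adjusted p = 6.6e-04). Nes, Ptprz1 and Hopx also fell, and Sox2, the progenitor factor, rose from 474 and 409 to 842 and 868 CPM (log2 fold change 0.95, SE 0.16, adjusted p = 0.0038). The strongest Sox2 region, chr3:34659067-34665511, spans 6445 bp.

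Notch1, the receptor that keeps progenitors undifferentiated, had 11 regions. It measured 333 and 349 CPM in WT and 512 and 335 CPM in KO in batch 3 (adjusted p = 0.27, and 5.5e-04 without KO library 2), with overlapping groups. It rose in batch 1 (log2 fold change 0.99). Slc1a3, a glutamate transporter of radial glia with 7 regions, rose from 695 and 593 to 1089 and 979 CPM (log2 fold change 0.68, SE 0.17, adjusted p = 0.018), a call lost without either WT library (adjusted p = 0.10 and 0.31). In the proneural and intermediate progenitor list, 8 of 13 genes had 16 regions, and of 6 tested in batch 3, 2 rose and 1 fell (median 0.28, with 17.3% and 14.4% of all genes called). In batch 1, 5 of 7 rose and none fell (median 0.97, with 34.3% and 35.0% of all genes called). Sox4 rose from 834 and 631 to 1603 and 1371 CPM and Sox11 from 449 and 483 to 784 and 655 CPM, both factors of early neuronal differentiation. Without WT library 2 both calls were lost (adjusted p = 0.13 and 0.18), and for Sox11 also without WT library 1 (0.26). Insm1, a zinc finger factor of basal progenitors, fell from 12.7 and 15.0 to 7.64 and 7.18 CPM (adjusted p = 0.016), lost without WT library 2 (0.15), and did not pass in batch 1 (adjusted p = 0.14).

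In the neuronal differentiation list 7 of 13 genes had 11 regions, and none of the 7 passed in batch 3 (median -0.23). In batch 1, 2 of 6 rose and 1 fell. Neuron markers of another list (Rbfox3, Snap25, Syt1, Stmn2 and Slc17a7) summed to 7.26 to 11.3 FPKM in WT and 4.20 to 4.42 in KO in batch 3. Mapt (tau) had 4 regions and 29.9 and 21.4 CPM in WT against 45.9 and 22.3 CPM in KO (adjusted p = 0.36, and 0.012 without KO library 2). In the astrocyte list 5 of 12 genes had 22 regions, of which 11 were nearest to Aldh1l1, a folate enzyme used as an astrocyte marker. Aldh1l1 fell from 145 and 115 to 38.2 and 32.7 CPM (log2 fold change -1.88, SE 0.16, adjusted p = 4.1e-04), and from 250, 216 and 200 to 39.7, 52.0 and 44.7 CPM in batch 1. Slc1a2, the astrocyte glutamate transporter, rose from 43.6 and 42.4 to 203 and 115 CPM (log2 fold change 1.89, SE 0.24, adjusted p = 0.0013), so genes of this list moved in opposite directions. Id3, an inhibitor of helix-loop-helix factors with 8 regions, had 75.4 and 54.5 CPM in WT and 58.4 and 75.0 CPM in KO (adjusted p = 0.90). S100b rose from 0.560 and 0.473 to 1.59 and 1.49 CPM (adjusted p = 0.035), a call lost without any 1 of the 4 libraries.

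In the oligodendrocyte lineage list 6 of 10 genes had 15 regions. Olig1, a lineage factor, rose from 1196 and 1312 to 1876 and 2195 CPM in batch 3 (adjusted p = 0.018) and lost the call without either WT library (0.25 and 0.19). In batch 1 Olig1 did not pass (log2 fold change 0.06, adjusted p = 0.76). Cspg4 (NG2 proteoglycan) fell from 203 and 135 to 67.7 and 45.4 CPM (log2 fold change -1.58, SE 0.24, adjusted p = 0.0026), a call lost without either KO library (0.099 and 0.18), and fell in batch 1 too. Mbp, a myelin protein with 4 regions, had 0.933 and 0.406 CPM in WT and 0.465 and 1.84 CPM in KO (adjusted p = 0.43). Among forebrain patterning factors 9 of 15 had 19 regions, 7 of them nearest to Dlx2, which had 1.65 ± 0.921 CPM in WT and 0.924 ± 0.00742 CPM in KO (mean ± SD, n = 2 each, edgeR adjusted p = 0.26). Of the 9, 2 rose and 1 fell in batch 3: Nr2f1 rose from 117 and 98.0 to 202 and 203 CPM (log2 fold change 0.91, SE 0.14, adjusted p = 0.0026) and Meis2 from 161 and 153 to 254 and 208 CPM, while Otx2 fell. Meis2 lost its call without either WT library (adjusted p = 0.13 and 0.21).

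A list of transcription factors held NFI, SOX, POU and AP-1 members together with Tcf4, Tcf12, Zeb1, Zeb2, Rfx3 and Rfx4, and 16 of its 25 genes had 78 regions. In batch 3, 6 of the 16 rose and 3 fell (median 0.29), beside 17.3% and 14.4% of all genes. In batch 1, 11 rose and 3 fell (median 0.65), beside 34.3% and 35.0% of all genes. Tcf4 is among the rises and Tcf12 among the falls in both batches. Nfix, a nuclear factor I protein of progenitor differentiation, rose from 121 and 147 to 311 and 227 CPM (log2 fold change 1.00, SE 0.18, adjusted p = 0.0053). Nfia, with 11 regions over 812 kb, had 372 and 396 CPM in WT and 334 and 294 CPM in KO (adjusted p = 0.16, and 0.0088 without KO library 1). Jun, with 11 regions, had 317 and 267 CPM in WT and 215 and 252 CPM in KO (adjusted p = 0.14, and 0.013 without KO library 2). Fos, its AP-1 partner with 5 regions, went in opposite directions in the batches. It fell from 342 and 179 to 84.3 and 60.0 CPM in batch 3 (log2 fold change -1.85, SE 0.29, adjusted p = 0.0031), and rose from 90.3, 71.2 and 71.3 to 116, 152 and 110 CPM in batch 1 (log2 fold change 0.70, SE 0.21, adjusted p = 0.016). The Fos call was lost without either KO library in batch 3 (adjusted p = 0.31 and 0.39) and without 3 of 6 WT and KO libraries, left out in turn, in batch 1 (0.052 to 0.055).

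For Notch, Wnt, BMP, Hedgehog and receptor tyrosine kinase signalling, 20 of 26 genes had 63 regions, and in batch 3, 8 of the 20 rose and 3 fell, beside 17.3% and 14.4% of all genes. In batch 1, 10 of 19 rose and 8 fell, beside 34.3% and 35.0% of all genes. Among inhibitors, Spry4, which dampens growth factor signalling, had 12 regions and fell from 471 and 477 to 172 and 230 CPM (log2 fold change -1.24, SE 0.17, adjusted p = 0.0018). Smad7, which blocks TGF-beta and BMP signalling, rose from 1.80 and 0.608 to 9.36 and 7.41 CPM (log2 fold change 2.77, SE 0.45, adjusted p = 0.0033). Axin2, a Wnt target and inhibitor with 5 regions, had 26.9 and 44.2 CPM in WT and 51.4 and 46.8 CPM in KO (adjusted p = 0.15, and 0.030 without WT library 2). Lef1, a nuclear effector of Wnt, fell from 2.43 and 4.46 to 0.199 and 0.460 CPM (log2 fold change -3.32, SE 0.56, adjusted p = 0.0039) in batch 3. In batch 1 Lef1 had at most 0.369 CPM in any WT or KO library and was not tested. Among receptors, Fgfr2 rose from 13.6 and 9.94 to 41.9 and 36.2 CPM and Fgfr3 fell from 127 and 47.0 to 19.8 and 15.0 CPM. Notch2 rose from 76.9 and 70.9 to 144 and 94.6 CPM (log2 fold change 0.69, SE 0.20, adjusted p = 0.029), beside the intronic region printed above. Fgfr2, Fgfr3 and Notch2, like Sox2, Nes, Ptprz1 and Hopx above, were chosen after their values were seen.

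Cell cycle genes with shared distal regions numbered 8 of 16, with 20 regions. None of the 8 rose and 3 fell in batch 3 (median -0.30), beside 17.3% and 14.4% of all genes. In batch 1, 1 rose and 4 fell (median -0.34), beside 34.3% and 35.0%. Over all 16 genes of the list, with or without a region, 0 rose and 8 fell in batch 3. In batch 1, 2 of the 16 rose and 11 fell, so falls were not particular to cell cycle genes with a region. Ccnd1, the cyclin that drives entry into S phase, had 6 regions between 36.8 and 89.9 kb from its start, the strongest at chr7:145029851-145032180, with folds of 6.45 and 5.98 in WT lines 532 and 541 and of 4.64 and 6.10 in KO lines 530 and 534. Its RNA, counted with Mir3962 as 1 locus, fell from 1854 and 2393 to 547 and 697 CPM (log2 fold change -1.77, SE 0.21, adjusted p = 9.9e-04) in batch 3. In batch 1 it fell from 1911, 1792 and 2022 to 178, 138 and 172 CPM (log2 fold change -3.55, SE 0.18, adjusted p = 3.3e-07). Ccnd2 fell from 1527 and 1894 to 1184 and 1149 CPM (adjusted p = 0.044), lost without either WT library (0.15 and 0.53). Cdkn1c, the inhibitor p57, fell from 20.4 and 9.67 to 6.51 and 5.28 CPM in batch 3 (adjusted p = 0.022), lost without KO library 1 or 2 or WT library 1 (0.14, 0.25 and 0.23), and did not pass in batch 1 (adjusted p = 0.32). Mycn, with 4 regions, had 4.98 and 5.81 CPM in WT and 5.91 and 8.04 CPM in KO (adjusted p = 0.34).

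Among H3K27 acetylation enzymes and enhancer readers, 4 of 14 genes had 6 regions, and none of the 4 passed in batch 3 (median 0.20). Ep300, which encodes the acetyltransferase p300, had 140 and 145 CPM in WT and 202 and 136 CPM in KO (adjusted p = 0.35, and 9.5e-04 without KO library 2), and rose in batch 1 (log2 fold change 0.54, SE 0.052, adjusted p = 4.1e-06). Kdm6b, an H3K27 demethylase, had 95.8 and 91.7 CPM in WT and 117 and 92.8 CPM in KO (adjusted p = 0.43, and 0.022 without KO library 2), and rose in batch 1 as well (log2 fold change 0.69, SE 0.12, adjusted p = 3.6e-04).

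m6A was present in all 4 m6A peak lists on exons of 1914 of the 3607 nearest genes tested in batch 3, or 53.1%, against 45.4% of all genes tested. Genes nearest to distal regions of both WT lines only stood at 55.0%, and of both KO lines only at 51.7%. Those nearest to shared regions near starts stood at 48.5%, so a share above that of all genes was not particular to shared distal regions. The 4 lists pair 2 immunoprecipitates with 2 inputs and so are not independent, and no test was made. The share was 48.1% for genes with 1 shared distal region, 51.8% with 2, 58.7% with 3 or 4, 73.3% with 5 to 9 and 69.0% with 10 or more. Median WT RNA levels over these classes, given above, went from 9.79 to 27.2 FPKM, and their part in the m6A shares was not tested. Of the 96 list genes with a region, 70 carried m6A in all lists, among them Sox2, Notch1, Nfia, Jun and Spry4, and Ccnd1 and Aldh1l1 did not. The 96 are chosen genes and include some not tested for RNA, so this count does not compare with the shares above.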

How the data were processed

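Chromatin data were MACS2 broad peak lists, 1 per line and mark, each called against that line's input. In them, fold enrichment over input (a ratio), the −log10 p and q and a score of 10 times the −log10 q are the authors' deposited values. The authors' RNA tables (Cuffdiff, per the submitters' processing notes, which also name TopHat2 2.1.0, Bowtie2 2.3.1, Cufflinks and mm10 with no order or role) hold fragment numbers and FPKM per library. The fragment numbers are the authors' estimated counts per assembled locus, as deposited, and were rounded. Loci with no known gene (0.352 to 2.16% of fragments) were left out of library sizes and tests.

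Lists were intersected with bedtools 2.31.1. KO was tested against WT in each batch with edgeR 4.0.16 (quasi-likelihood, TMM factors 0.972 to 1.04, filterByExpr, Benjamini-Hochberg over all genes, threshold 0.05) in R 4.3.3, and the script was tested on simulated data. H3K27me3 shares used an exact permutation test (scipy 1.17.1). DESeq2 1.42.0, limma 3.58.1 on log2(FPKM + 0.1), leaving out libraries, and other widths, distances and q limits were alternatives. Batch 2 RNA was not analysed here, since the table deposited for it is byte for byte that of batch 1. CPM use the fragments of known genes. Loci joining several genes (445 in batch 3, 601 in batch 1) count as 1.

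Members and lists were chosen with earlier results of these data known. Named were the 8 regions with the highest lowest percentile of fold enrichment, the 10 genes with most regions, and the 8 largest rises and 8 largest falls called in both batches with no overlap of WT and KO libraries and a mean of at least 1 CPM. From each list, 2 to 4 genes with most regions or largest change were named. Of the genes so chosen, 3 are not reported here. Sequences are RefSeq windows (GRCm38.p6), and 22425 assembly genes matched by symbol. Motifs were searched on both strands, the NFI motif as TTGGC and GCCAA with 5 bases between. Depth limits precision, and the bound against 0 counts covers counting error only.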

Additional observations from a re-analysis of the deposited data

Results flagged for a closer look

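For 15 of the 57 genes named by rule and tested for it (26.3%), the KO effect differed between the RNA batches (edgeR interaction, Benjamini-Hochberg over all genes). Over all 13589 genes tested the share was 14.4%, and over 3811 nearest genes 17.2%. Some of the 57 were named for a batch 3 call and a large batch 3 change. That choice can itself favour a difference between batches, and its part in the 26.3% was not tested. Values are batch 3 minus batch 1 on the log2 scale. Lines and batches differ together, so they cannot be told apart.

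Falls were smaller in batch 3 for Anxa3 (4.07, SE 0.80, adjusted p = 0.012), Ccnd1 (1.74, adjusted p = 0.0014), Ccnd2 (2.16, adjusted p = 0.0018), Spry4 (0.93, adjusted p = 0.043) and Tnc (0.82, adjusted p = 0.0083). Falls were larger in batch 3 for Fosb (-3.37, adjusted p = 0.0075) and Nr2e1 (-1.05, adjusted p = 0.038). Nr2f1 rose less in batch 3 (-0.80, adjusted p = 0.018). The other genes passed in 1 batch alone or turned. Fos fell in batch 3 and rose in batch 1 (-2.60, adjusted p = 0.0030). Cdkn1c (-1.62, adjusted p = 0.033) and Insm1 (-1.45, adjusted p = 0.048) fell in batch 3 and did not pass in batch 1. Lef1 (-3.01, SE 0.92, adjusted p = 0.049) fell in batch 3 and was too low to be tested alone in batch 1. Ncam1 (-0.91, adjusted p = 0.046), Notch1 (-0.71, adjusted p = 0.039) and Zfp36l1 (-0.86, adjusted p = 0.0079) rose in batch 1 and did not pass in batch 3.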

How the results depend on the processing

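The number of shared distal regions was 7259 at a minimum width of 500 bp, 7442 with H3K27ac peaks of −log10 q at least 2 and 2046 at 5, and 12450 to 15170 without 1 line. Batches 1 and 3 in 1 fit with batch called 1383 nearest genes higher and 1113 lower (36.6% and 29.5%), with more libraries in the fit, beside 32.8% and 30.8% of all genes. Regions from peaks of −log10 q at least 5, which are fewer, gave 252 higher and 196 lower genes in batch 3 (21.2% and 16.5%). In batch 1 they gave 507 and 415 (40.6% and 33.2%). All genes tested stood at 17.3% and 14.4% in batch 3 and at 34.3% and 35.0% in batch 1. Leaving out 1 library gave 412 to 988 higher and 343 to 840 lower in batch 3, the lowest without WT library 2, and 1395 to 1511 and 1164 to 1251 in batch 1. In batch 3, the share of all genes called also fell without either WT library, as given above, and rose without either KO library. The swing was thus not particular to nearest genes. In batch 1, leaving out 1 library gave 31.5 to 33.7% higher and 32.0 to 34.7% lower of all genes. Nearest genes stood at 36.2 to 39.2% and 30.2 to 32.5% there. The H3K27me3 difference was 0.840 to 1.32 points without 1 line. m6A stood on 76.5% of nearest genes when any list sufficed, against 70.7% of all genes tested. With peaks of −log10 q at least 5 the shares were 11.3% and 8.50%. RefSeq starts, added after seeing the data, left 9781 regions. Of the named genes' results under alternatives, 1129 stayed on the same side of the threshold, 62 lost the call and 28 gained one. None changed sign while called in either fit, and changes of sign without a call count among the 1129. Sequence around region midpoints and G and C content of whole regions were not run. No paired analysis was possible because the RNA tables do not tie library numbers to lines and the labels pair no WT line with a KO line.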
